A study of Arabidopsis with 8 samples.

Results

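The genes described here were low in leaves of well-watered nNOS transgenic plants and back near the wild-type level after drought. They were chosen on the array values themselves. A probe set entered when its mean log2 signal in nNOS control was at least 0.8 below WT control, its mean in nNOS drought was at least 0.8 above nNOS control, and its mean in WT drought was less than 0.8 above WT control. Of 22746 probe sets, 731 were that low in nNOS control, 191 of these also came back under drought, and 188 met all 3 limits. Left out of these were 20 probe sets of plastid-encoded genes and 3 of nuclear genes that the rule sets aside by name (GSTF12, SEX4 and CYP96A15), so that 165 members remained. Of these, 118 carry the name of 1 gene, each with a locus code of a nuclear chromosome. Another 4 match several nuclear genes, and for 43 no name was found, so that they were not shown to be nuclear.

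Neuronal nitric oxide synthase (nNOS) is an animal enzyme that makes nitric oxide from arginine, and nitric oxide acts as a signal in plant responses to drought, pathogens and light. The transgene came from the rat and was driven by the constitutive cauliflower mosaic virus 35S promoter, in the Col-0 ecotype. The 4 groups were nNOS control (transgenic, well watered), nNOS drought (transgenic, water withheld), WT control and WT drought (Col-0 under the same conditions), with 2 leaf samples and 2 Affymetrix ATH1 arrays per group. Treatment began at an age of 2 weeks, and leaves of 20 seedlings or more made up a sample. The sample labels give 14 d without water and the study's methods a shorter time. RNA of 2 transgenic lines was pooled for labelling according to the design text, although the labels name only 1 line in the extraction step, so differences between lines cannot be seen. The rat transgene was not measured here.

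Of 6 leaf, 6 flower and tapetum, 4 root and 4 seed markers, 1 gene each for leaf, flower and root could be read by name. The platform annotation does not list 8730 of the probe sets, so a marker without a named probe set is not shown to be unexpressed. The tissue check is limited to these genes. RCA (rubisco activase, a leaf gene) had a log2 signal of 12.85 to 13.11 on the 8 arrays, and A9, a gene of the anther tapetum, one of 2.55 to 3.04. PYK10, a beta-glucosidase of roots and seedlings, lay between 7.40 and 7.92 and was 0.36 lower in nNOS control than in WT samples without drought (limma adjusted p = 0.0301). In whole leaves, less RNA per cell and fewer cells of a kind cannot be told apart. Nothing says that the 2 samples of a group were grown separately, so every p-value measures only the spread between these samples.

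A common property of the members was a position near the WT on 6 arrays and well below it on the other 2. Relative to the mean of WT control, the median member lay at -0.91 and -1.11 in the nNOS control samples, at -0.01 and -0.07 on the nNOS drought arrays and at 0.20 and 0.15 on the WT drought arrays (log2 differences). The same medians over all 22746 probe sets were between -0.04 and 0.01. In all 165 members both nNOS control arrays were below each of the other 6, which the rule favours and which held for 18.5% of all probe sets. The gap between the higher nNOS control array and the lowest of the other 6 ran from 0.365 to 1.297, with a median of 0.72. Because the rule used these differences, they are given as a description and without a test.

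**Figure D1:**
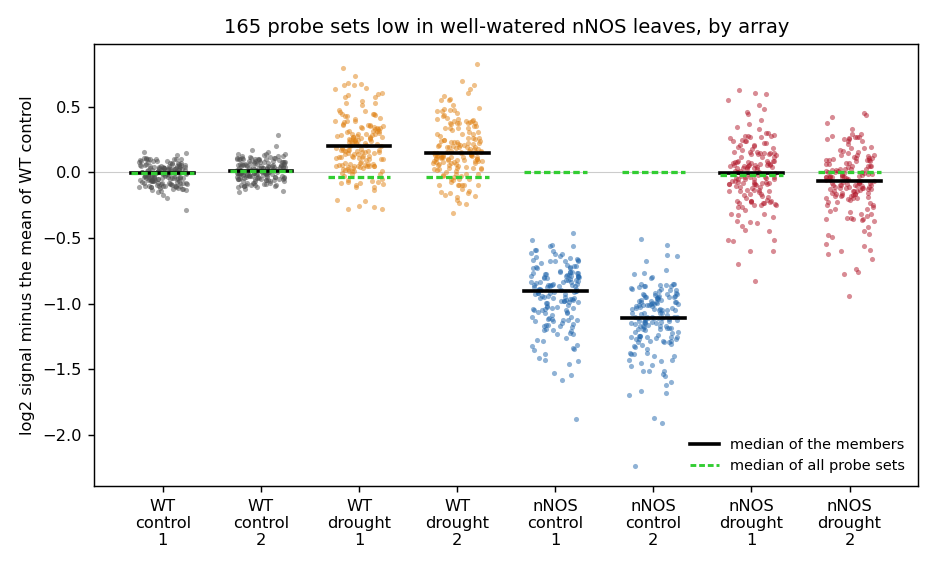
Log2 signal of each of the 165 members minus its mean in WT control (vertical axis) on each of the 8 arrays (horizontal axis, group and replicate). Points are probe sets, black bars the median of the members and dashed green bars the median of all 22746 probe sets. The members sit at medians of -0.91 and -1.11 for nNOS control and between -0.07 and 0.20 on the 4 drought arrays.

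The loss (nNOS control minus WT control) ranged from -0.80 to -1.91 on the log2 scale, with a median of -0.99, where all probe sets had a median of 0.01. In 81 members it was at least 1 in size. The recovery (nNOS drought minus nNOS control) ranged from 0.80 to 1.56 with a median of 0.92, and it was at least 1 in 58 members. Both reached 1 in 35 members. In the WT, drought changed the median member by 0.16, within a range of -0.28 to 0.78, where all probe sets had a median of -0.04. The WT drought mean was above WT control in 137 of 165 members (83.0%), beside 43.7% of all probe sets. All probe sets with a WT control mean of 5 to 7 had a median of 0.07, and those of 7 to 9 one of 0.03. Where nNOS drought ended relative to WT control varied, with 95 members below and 70 above, and 127 within 0.25 of it.

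The members were expressed above the middle of the array. Their median log2 signal in WT control was 7.01 against 5.02 for all probe sets, and 156 of 165 (94.5%) reached 5, against 50.2% of all. The other 9 had a median loss of -0.98. Whether dim probe sets have less room for a fall of this size was not tested. Without background readings, a low signal was not distinguished from none. The 118 named genes were spread over the nuclear chromosomes, with 29 on chromosome 1, 18 on chromosome 2, 22 on chromosome 3, 18 on chromosome 4 and 31 on chromosome 5. These are 24.6%, 15.3%, 18.6%, 15.3% and 26.3% of them, beside 26.0%, 16.5%, 20.4%, 14.6% and 22.5% of all probe sets with a named gene. To 58 members a role was assigned by hand from their annotation, and these are described below in 7 groups, whose sizes rest on that choice. Other members may belong to the same kinds, so the sizes are not counts over all 165 and were not set beside all probe sets.

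Nuclear genes for plastid proteins held the largest fall of all members. AT5G44520 is annotated as related to ribose 5-phosphate isomerase, an enzyme that interconverts pentose phosphates in the Calvin cycle and the pentose phosphate pathway. Its log2 signal was 7.37 and 7.71 in WT control, 5.96 and 5.31 in nNOS control, 6.94 and 6.60 in nNOS drought and 7.48 and 7.44 in WT drought. The nNOS control mean was 3.75-fold below WT control, and the nNOS drought arrays, although 1.14 higher than nNOS control, stayed below all 4 WT arrays. LSF2, a glucan phosphatase of starch breakdown, had 7.86 and 7.95 in WT control, 6.76 and 6.51 in nNOS control, 7.85 and 7.66 in nNOS drought and 8.25 and 8.24 in WT drought. PBCP, the phosphatase that acts on core proteins of photosystem II, had 7.92 and 7.97 in WT control, 6.82 and 6.70 in nNOS control, 7.92 and 7.86 in nNOS drought and 8.00 and 8.01 in WT drought. For PBCP the 6 arrays other than nNOS control all lay within 7.86 to 8.01. SPPA, a plastid protease, and AT2G37240, a thioredoxin-fold protein of the chloroplast, recovered by 0.88 and 1.26 from losses near that of PBCP (-1.18). PnsL1, a lumenal subunit of the photosynthetic NDH complex, had 9.44 and 9.50 in WT control, 8.55 and 8.29 in nNOS control, 9.52 and 9.43 in nNOS drought and 9.57 and 9.58 in WT drought. The plastid-encoded probe sets that met the same limits and were left out had a median loss of -1.36 and a median recovery of 1.48.

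Enzymes of cofactor, pigment and secondary metabolism formed a group of 7. CYP97A3, also called LUT5, hydroxylates the beta-rings of carotenes on the way to lutein. It had 7.70 and 7.69 in WT control, 6.41 and 6.01 in nNOS control, 7.09 and 7.15 in nNOS drought and 7.93 and 7.78 in WT drought, and thus recovered only in part. VTC5, one of the enzymes that commit GDP-L-galactose to ascorbate synthesis, had 4.83 and 5.40 in WT control, 4.05 and 3.74 in nNOS control, 5.16 and 5.05 in nNOS drought and 5.37 and 5.32 in WT drought. Its WT control arrays differed by more than those of most members, and its signal in nNOS control was low. PDX2, the glutaminase subunit of vitamin B6 synthesis, had 8.28 and 8.32 in WT control, 7.39 and 7.36 in nNOS control, 8.58 and 8.42 in nNOS drought and 8.64 and 8.64 in WT drought. AT2G23910, related to cinnamoyl-CoA reductase, had the widest gap of all members (1.297): its nNOS control arrays read 4.23 and 4.18 and its other arrays 5.52 to 6.26. AT4G11410, of the short-chain dehydrogenase/reductase family, had a loss of -1.39 and a recovery of 1.23.

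By assigned role, 13 members were regulators of transcription and chromatin. AT5G42670, which carries an agenet domain (a fold of chromatin-binding proteins), had 6.27 and 6.16 in WT control, 4.34 and 4.77 in nNOS control, 5.77 and 5.77 in nNOS drought and 6.10 and 6.11 in WT drought. GAS41, the homologue of a yeast YEATS-domain protein of chromatin complexes, had 5.80 and 5.69 in WT control, 4.58 and 4.13 in nNOS control and 5.83 to 6.27 on the 4 drought arrays. Its recovery of 1.56 was the largest of all members. COL9, a CONSTANS-like B-box protein known as a repressor of flowering, had 6.28 and 6.35 in WT control, 5.04 and 4.84 in nNOS control, 6.23 and 6.09 in nNOS drought and 6.70 and 6.62 in WT drought. The bHLH genes AT1G29950 and AT5G09460 (SACL3 and SACL1 of the SAC51 family, whose translation is controlled by upstream reading frames in their leaders) had losses of -1.28 and -1.26 and recoveries of 1.17 and 1.08. Their probe sets are also assigned to small loci beside them in the study's supplementary table. Both floral MADS box regulators among the members were read in leaves: FRUITFULL (AGL8) had a loss of -0.99 and SEP4 one of -0.89. FRUITFULL had 4.26 and 4.98 on its nNOS control arrays, a wide spread beside 5.71 and 5.51 in WT control.

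Signalling proteins by assigned role numbered 11. SRF1, a receptor-like kinase, had 5.40 and 5.20 in WT control, 4.50 and 3.70 in nNOS control, 5.56 and 5.24 in nNOS drought and 5.59 and 5.48 in WT drought. Its nNOS control arrays were further apart than those of any of its other groups. ATB BETA, a regulatory subunit of protein phosphatase 2A, AT4G38060 (Clavata complex interactor 2), the type 2C protein phosphatase AT3G12620 and CKB2, a regulatory subunit of casein kinase II, had losses of -1.17, -1.15, -1.13 and -1.05. AT3G12620 had the largest recovery of the group (1.41). ROP4 (ARAC5), a small GTPase of cell polarity, had 8.09 and 8.20 in WT control, 7.02 and 7.29 in nNOS control, 8.39 and 8.13 in nNOS drought and 8.19 and 8.28 in WT drought. JAZ6, a repressor of jasmonate signalling, had 8.93 and 8.92 in WT control, 8.20 and 8.02 in nNOS control, 9.27 and 9.20 in nNOS drought and 9.22 and 9.05 in WT drought. It lay close to the limit of the rule, with a loss of -0.81.

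Defence genes by assigned role numbered 4. PDF1.2, a plant defensin induced through jasmonate and ethylene, had 9.50 and 9.41 in WT control, 7.92 and 8.25 in nNOS control, 9.66 and 9.60 in nNOS drought and 9.98 and 10.01 in WT drought. PDF1.2b had a loss of -1.06 and a recovery of 0.96, but its probe set is of a type that can bind transcripts of several genes, so the 2 defensins may not be separate readings. CHI (AT2G43570), a chitinase, had 7.51 and 7.50 in WT control, 6.60 and 6.61 in nNOS control, 7.77 and 7.75 in nNOS drought and 8.24 and 8.33 in WT drought. Of all members it came nearest to the limit on the WT response, with a WT drought mean 0.78 above WT control. The TIR-NBS disease resistance gene AT1G72940 had a loss of -1.05 and a recovery of 1.29. The probe set for the myrosinase-binding protein genes AT1G52030 and AT1G52040, which cannot be assigned to either, recovered by 1.47.

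Transporters by assigned role numbered 5, with losses of -0.83 to -1.01. CAX1, which exchanges calcium for protons at the vacuolar membrane, had 10.74 and 10.66 in WT control, 9.93 and 9.65 in nNOS control, 11.10 and 11.14 in nNOS drought and 11.36 and 11.28 in WT drought. Under drought it was above WT control in both genotypes, by 0.42 in nNOS drought and 0.62 in WT drought. PPT2, a phosphoenolpyruvate/phosphate translocator of the plastid envelope, and ER-ANT1, an adenine nucleotide transporter of the endoplasmic reticulum, had losses of -1.01 and -0.94. In the last group, 11 genes of RNA and protein processing, MAP1D (a methionine aminopeptidase of organelles) had 8.45 and 8.49 in WT control, 7.21 and 6.96 in nNOS control, 7.96 and 7.98 in nNOS drought and 8.25 and 8.30 in WT drought. The pentatricopeptide repeat gene AT3G26630 had a loss of -1.12, the acetyltransferase family gene AT4G19985 one of -1.06, the F-box gene SKP2A one of -1.02 and the RING finger gene AT5G25560 one of -1.01. The nNOS control arrays of AT5G25560 read 4.90 and 4.07, so that its loss depends on which of them is taken.

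**Figure D2:**
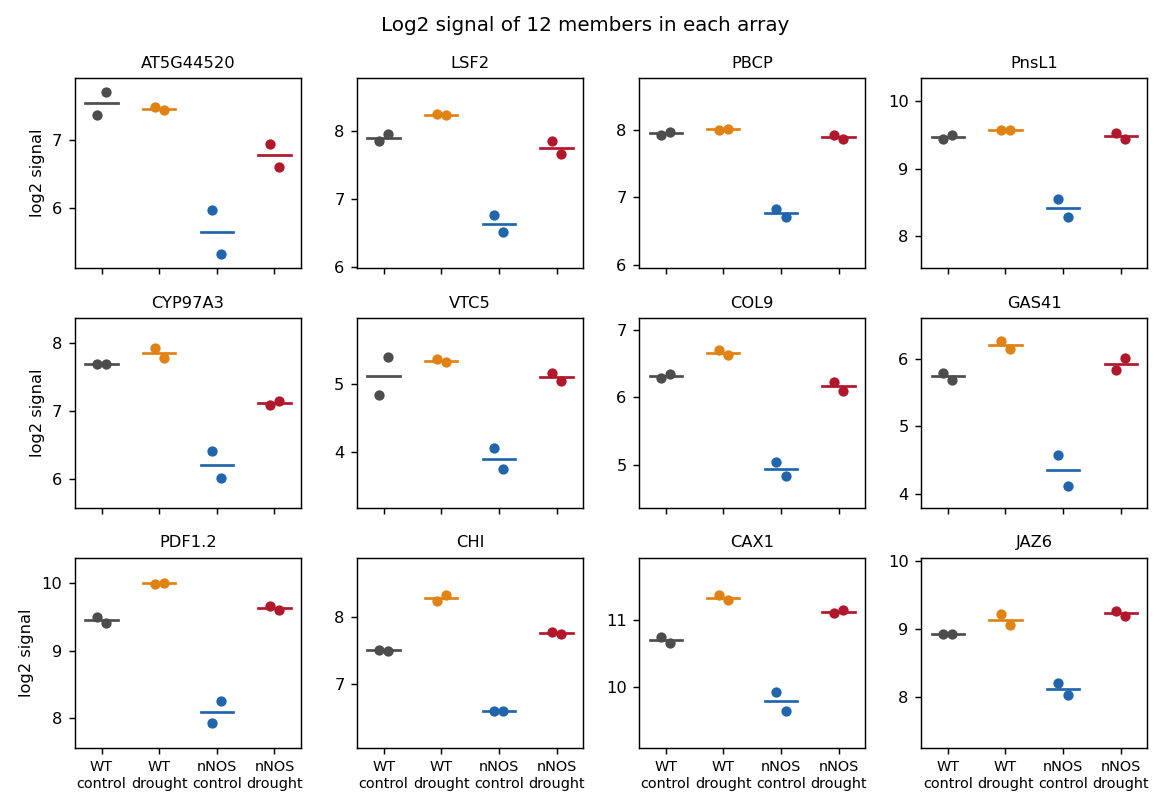
Log2 signal (vertical axis, each panel spanning the same width) of 12 members in the 4 groups (horizontal axis). Points are the 2 arrays of a group and bars their mean. In each panel both nNOS control points lie below the other 6, from a gap between means of 0.81 for JAZ6 to 1.91 for AT5G44520 against WT control.

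Not all strong members could be described. Losses of -1.72 and -1.55, among the 4 largest, belonged to probe sets for which no gene name was found. At the limits, the members just inside and the probe sets just outside were alike. AT3G26100, AT2G29360 and AT1G66430 entered with losses of -0.80, -0.81 and -0.81, and a probe set without a name, AT3G27230 and AT3G19900 stayed out with losses that all round to -0.80. For the recovery, a probe set without a name, ATKDSA2 and AT5G47435 entered with 0.80 each, and a probe set without a name, AT2G32500 and AT5G25510 stayed out with 0.80, 0.79 and 0.79. For the WT response, CHI, SEP4 and FBH3 entered with 0.78, 0.74 and 0.65. ENH1 (0.85) and AT5G51440 (1.38) were left out by it, with one of the genes set apart by name. At 0.6 in place of 0.8, 568 probe sets met the rule, and at 1 there were 35.

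Whether the genotypes still differed under drought was tested, because the rule sets no limit on that difference. The arrays of both drought groups entered the rule, however, and the 2 comparisons are linked through it, so the counts describe the members and are no independent support. Most members stayed slightly lower in the transgenic plants. The difference nNOS drought minus WT drought had a median of -0.22 over the members, within a range of -0.80 to 0.24. It was below 0 in 146 of 165 (88.5%), where all probe sets had a median of 0.04 and 44.6% below 0. Part of this contrast goes with signal. All probe sets with a WT control mean of 5 to 7 had a median of -0.09, beside -0.22 for the members there. From 7 to 9 the medians were -0.06 and -0.25. Below 5 they were 0.11 and -0.17, and at 9 or above 0.02 and -0.22. The shares called below are over all signals. In limma, 23 members (13.9%) passed an adjusted p of 0.05 as lower in nNOS drought and 0 as higher, where 7.00% of all probe sets were called lower and 3.68% higher. At an unadjusted p of at most 0.05, 64 members (38.8%) were lower and 0 higher, beside 15.8% and 14.1% of all probe sets. None of the 23 differed by 1 or more on the log2 scale, a size that 0.0703% of all probe sets passed as lower and 0.0176% as higher. Under the rule, members with a loss smaller than 1 could not reach that size as lower. Both nNOS drought arrays were below both WT drought arrays in 120 members, against 30.2% of all probe sets.

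The members called lower under drought included 15 named genes, 7 of them with a role given above. Of these 7, CYP97A3 had the largest difference, -0.73 (SE 0.133, limma adjusted p = 0.0126, with n = 2 per group). SEP4 followed with -0.61 (SE 0.158, limma adjusted p = 0.0356) and AT2G23910 with -0.60 (limma adjusted p = 0.0164). CHI, COL9 and LSF2 were lower by 0.52, 0.50 and 0.49, and AT5G09460 by 0.43. AT5G44520, with a difference of -0.69 (SE 0.2, limma adjusted p = 0.051), missed the threshold. Of the members grouped by role, HDT4, a plant-specific histone deacetylase, had the highest value, 0.18 above WT drought (limma adjusted p = 0.268). Leaving out a drought array leaves 1 array in that group, which is then assumed to vary like the other groups. The members called lower numbered 3 without nNOS drought replicate 1 and 0 without nNOS drought replicate 2, WT drought replicate 1 or WT drought replicate 2. Over all probe sets, lower calls went from 1592 to between 3 and 253, and the median difference of the members stayed at -0.27 to -0.19. Without either nNOS control array, which takes the spread of that group out of the fit, 51 members and 2516 of all probe sets were called lower.

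**Figure D3:**
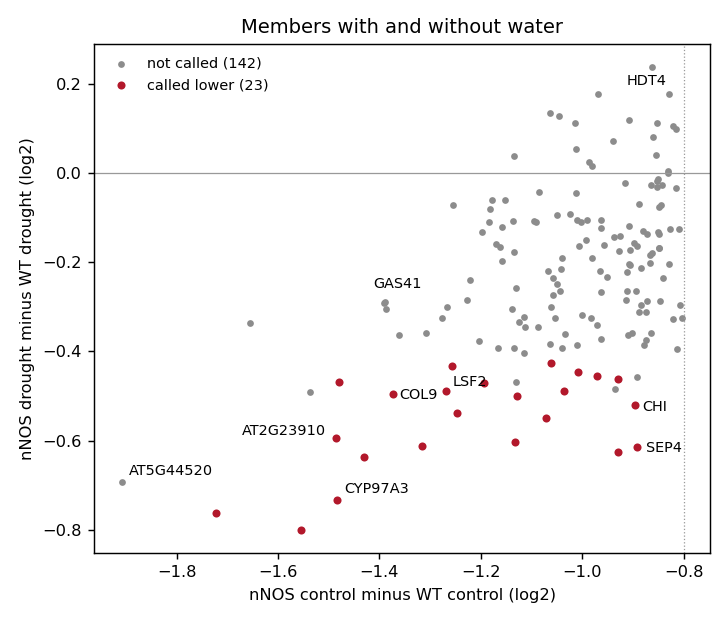
Difference between the genotypes under drought (vertical axis, nNOS drought minus WT drought, log2) against that without drought (horizontal axis, nNOS control minus WT control, log2) for the 165 members. Red points are the 23 members called lower under drought, grey points the 142 not called, and the dotted line marks the limit of the rule at -0.8. Most points (146) lie below 0 on the vertical axis.

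Relatives of the members were looked up in lists of the same pathway or family. With the members themselves left out, 13 other genes of these lists had a probe set of their own. Without drought, limma called 5 of the 13 lower and 1 higher in nNOS transgenic plants, where 17.9% and 13.0% of all probe sets were called lower and higher. These shares are over all signals, and the 5 read 7.37 to 9.09 in WT control. All probe sets with a WT control mean of 7 to 9 had a median difference of -0.16, and those at 9 or above one of -0.07. ROP2, like ROP4 a small GTPase of the ROP family, had 8.36 and 8.18 in WT control, 7.69 and 7.50 in nNOS control, 8.64 and 8.65 in nNOS drought and 8.45 and 8.56 in WT drought. It was lower by 0.68 without drought (SE 0.114, limma adjusted p = 0.00147) and missed membership by the size of its loss. Its rise with drought in nNOS transgenic plants was 1.05 (limma adjusted p = 0.000154). The lycopene beta-cyclase gene LYC, which acts before CYP97A3 in the synthesis of lutein, was lower by 0.67 (limma adjusted p = 0.00172), whereas Z-ISO, an early enzyme of the same pathway, had a difference of 0.05 (limma adjusted p = 0.769).

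In ascorbate synthesis, VTC4 and GME, which act after and before the step of VTC5, were lower by 0.65 and 0.41 in nNOS control (limma adjusted p = 0.00283 and 0.0159). AT4G33670 and GLDH, the last dehydrogenases of the pathway, had differences of 0.20 and 0.29 and were not called (limma adjusted p = 0.259 and 0.0677). CAX3, a sister of CAX1, was lower by 0.38 (limma adjusted p = 0.0315) and rose by 1.26 with drought in nNOS transgenic plants. COL1 went the other way from COL9. It read 6.34 and 6.41 in WT control, 6.97 and 7.11 in nNOS control and 5.87 to 6.14 on the 4 drought arrays, and was higher by 0.67 in nNOS control (limma adjusted p = 0.00165). JAZ7 and JAZ10, of the family of JAZ6, were not called in nNOS control versus WT control (0.04 and -0.15). JAZ7 was 0.82 above WT drought in nNOS drought (limma adjusted p = 0.0067), the only gene of the 13 called in that comparison. The defensin PDF1.1 and the SAC51 family gene AT5G50010 were dim (2.61 to 3.08 and 3.76 to 4.21) and were not called in any of the 4 comparisons.

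With drought, 5 of the 13 list genes were higher and 2 lower in nNOS transgenic plants, and 1 was higher and 2 lower in the WT. Of all probe sets 14.0% and 10.8% were called higher and lower in nNOS drought versus nNOS control, and 5.97% and 4.92% in WT drought versus WT control. Genes that followed the members fully could not appear here, since they are members, and relatives named from the supplementary table were selected as changed. A single named member had a further probe set of its own gene. For AT5G24690 this other probe set read 6.42 and 6.52 in WT control, 6.17 and 5.68 in nNOS control, 7.04 and 6.81 in nNOS drought and 6.78 and 6.65 in WT drought. Its loss of 0.54 was smaller than the limit of the rule (limma adjusted p = 0.0233) and its recovery was 1.00 (limma adjusted p = 0.00126). It comes from the same arrays and RNA and adds a second set of probes, not further samples.

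Control RNAs moved with the same 2 arrays as the members, in the opposite direction. The poly-A controls, bacterial transcripts added to the RNA before labelling (24 probe sets), averaged 8.98 and 9.40 (log2) in nNOS control but only 6.04 to 6.88 on any other array. The hybridization controls, added after labelling (18 probe sets), had 9.93 and 10.32 in nNOS control and 8.82 to 9.19 elsewhere. Of the nNOS control arrays, replicate 2 had the higher controls, and 131 of the 165 members (79.4%) were lower there than in replicate 1, against 52.4% of all probe sets. The 3′ minus 5′ difference of the GAPDH controls, a sign of RNA quality, was 1.06 and 1.45 in nNOS control, 1.32 and 1.02 in WT control and 0.64 to 0.87 on the drought arrays. That of actin was 2.97 and 2.96 in nNOS control, 3.03 and 3.41 in WT control, 3.07 and 2.91 in nNOS drought and 3.63 and 3.58 in WT drought. The nNOS control arrays also varied more: the median SD of the members was 0.168 in nNOS control and 0.0741, 0.0718 and 0.0472 in nNOS drought, WT control and WT drought. Over all probe sets it was 0.119 in nNOS control and 0.0599 to 0.0829 in the other groups. Members were chosen on the mean of the 2 nNOS control arrays, so the 79.4% and the SD of 0.168 are not independent of the rule. The part of these differences in the members' pattern was not tested, and with 1 pair of arrays per group the properties of the arrays and of the plants cannot be told apart.

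**Figure D4:**
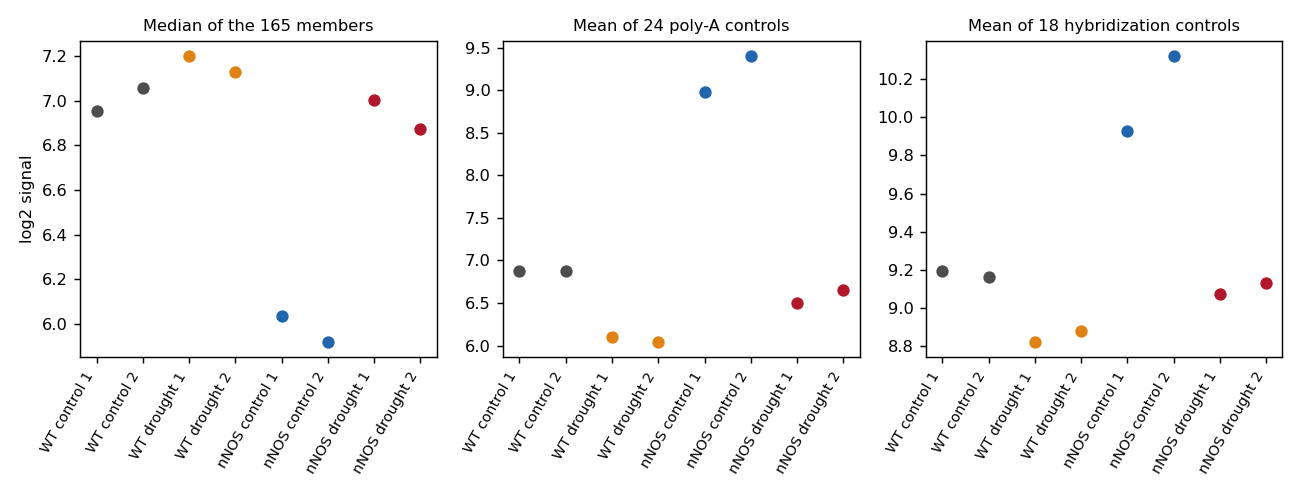
Median log2 signal of the 165 members (left), mean of the 24 poly-A controls (middle) and mean of the 18 hybridization controls (right) on each of the 8 arrays (horizontal axis), each panel with its own vertical scale in log2 units. On the 2 nNOS control arrays the members are at 6.03 and 5.92, the lowest of the 8, and the poly-A controls at 8.98 and 9.40, the highest.

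The loss also has to be read beside a shift of all probe sets of like signal. For those with a WT control mean between 5 and 7 the median of nNOS control minus WT control was -0.15, and between 7 and 9 it was -0.16. Below 5 it was 0.09, and at 9 or above -0.07. Of the members, 73 and 66 fell in the 2 middle ranges, with median losses of -0.96 and -1.01, 17 lay at 9 or above (-1.04) and 9 below 5 (-0.98). The set itself depended on the normalization. After quantile normalization 100 probe sets met the rule, after centring of each array 96, and after cyclic loess normalization 59, of which 55 were among the 165. All 165 stayed below WT control in nNOS control under each of these 3, which their selection on these arrays favours. Only 120, 114 and 101 of them did so by at least 0.8. Without nNOS control replicate 1, 360 probe sets met the rule, including 151 of the members, and without replicate 2 there were 118, including 87.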

How the data were processed

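Leaf RNA was measured on 8 Affymetrix ATH1 arrays. The authors took signals from the scans with Command Console, processed them in R with affylmGUI, and deposited normalized log2 values of 22810 probe sets. The normalization is not given in the sources used here. The 64 Affymetrix controls were left out of all counts.

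Members and gene lists were chosen with earlier results of these data known. Of the members, 90 were named from the platform annotation and 28 from gene codes of the study's supplementary table, updated through RefSeq (TAIR10.1). That table's fold changes and p-values were not used, but it lists only genes that changed in these arrays. Named genes are the largest losses with an assigned role, up to 5 per role group, the probe sets next to each limit, list genes and, beyond this rule, some members called under drought or picked as extremes after their values were seen. For list genes the probe set with the highest mean signal was taken.

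The means of the 4 groups were fitted with limma 3.58.1 (R 4.3.3) and moderated with eBayes, and p-values were Benjamini-Hochberg adjusted over all probe sets. A call is an adjusted p of at most 0.05. The procedure was run on simulated data whose changes were larger than any member's difference under drought, so that run does not cover differences of the members' size. The 2 arrays per group limit the precision. Alternatives were other normalizations, limits, filters and fits, a replicate block, and omission of single arrays.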

Additional observations from a re-analysis of the deposited data

Results flagged for a closer look

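In data outside the comparisons, the poly-A controls were 2.31 higher on the log2 scale in nNOS control than in WT control, with both nNOS control arrays above both WT control arrays. The hybridization controls were 0.948 higher, again with no overlap. Both stand in the group in which the members were low, and their part in that was not tested.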

How the results depend on the processing

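With 2 arrays per group and the rule applied to these same arrays, limits and normalization set which genes are members. The number of members was 165, and it was 100 after quantile normalization, 96 after centring on the median, 59 after cyclic loess, 35 and 568 with limits of 1 and 0.6, and 118 to 360 with each array left out. The other filters gave 141 to 165. The median loss was -0.91, -0.89 and -0.87 after the 3 normalizations and -0.91 to -1.11 with arrays left out. The median recovery was 0.79 after cyclic loess and 0.84 to 1.05 with arrays left out. The median of nNOS drought minus WT drought was -0.12 after centring, which moved the median of all probe sets from 0.04 to 0.14, and -0.27 to -0.19 with arrays left out. That of WT drought minus WT control stayed within 0.11 to 0.20. The cause of these shifts was not tested.

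Of members called lower in nNOS drought versus WT drought (23 as reported), there were 64 at an unadjusted p, 0 with a log2 fold change of 1 in size, 50 in a fit to the 4 drought arrays, 40 with trend and robust, 45 after a filter on signal, where fewer probe sets were tested, 16 to 18 after the normalizations, and 0 to 51 with arrays left out. Calls over all probe sets (1592) moved alike, to 3584, 16, 2674, 2241 and 2086 in the first 5 of these settings and to 3 to 2516 with arrays left out. After the filter, 2086 stands beside 11427 probe sets with a WT control mean of at least 5, and 45 beside 156 members. More were called among fewer tested, so the shares of members and of all probe sets both rose. After quantile normalization, centring and cyclic loess, 1129, 1021 and 1231 of all probe sets were called lower. No setting gave a member called higher. List genes called higher in nNOS control versus WT control numbered 2 in place of 1 after each normalization, and those higher in nNOS drought versus nNOS control numbered 3 in place of 5 after cyclic loess. Alternatives for the lists under drought were chosen after seeing the data. For the 58 members with an assigned role, all 406 alternative values of the loss stayed below 0, from -2.23 to -0.60. Their selection at a loss of at least 0.8 on these same arrays favours that, so it is no independent support. Of the 165 members, 120, 114 and 101 kept a loss of at least 0.8 after quantile normalization, centring and cyclic loess.

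The replicate numbers gave no sign of pairing the samples: deviations of same-numbered arrays correlated at -0.12 to 0.12 between groups. With the replicate block, 21 members were called lower under drought in place of 23, and 1451 of all probe sets in place of 1592. No count of list genes changed with it. A search for motifs in promoters was not run, as promoter sequences were not used here. Gene length could not be checked, since only 71.5% of the members have a gene name.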
